A study of Mus musculus with 4 samples.

Results

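Transcripts of 10 genes that break down heme or handle iron were followed in mammary tumours of MMTV-Neu mice with and without the receptor tyrosine kinase AXL. The genes were taken by symbol, and all 10 matched 1 Ensembl row each among the 38293 gene rows of every count file. They are the heme oxygenases Hmox1 and Hmox2, the biliverdin reductases Blvra and Blvrb, the ferritin subunits Fth1 and Ftl1, the iron exporter Slc40a1, the uptake genes Tfrc and Trf, and the heme-sensing repressor Bach1. They were chosen with their AXL KO against WT differences in these same libraries known, so those differences are given as a description and no p-value is attached to them. All 10 passed the low-count filter, which kept 14330 genes.

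There were 2 groups of 2 tumour libraries, all from the FVB strain. In both groups the promoter of mouse mammary tumour virus drove the oncogene Neu (Erbb2). WT tumours were AXL+/+ and AXL KO tumours were AXL-/-, and the sources used here do not state the ages of the animals. Because nothing says that the replicates came from separate animals, the spread between them may in part be technical.

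Heme, the iron-holding ring of hemoglobin and many enzymes, is opened by heme oxygenase into biliverdin, carbon monoxide and ferrous iron, and biliverdin reductase turns biliverdin into bilirubin. The freed iron is stored in ferritin shells made of heavy and light chains or leaves the cell through ferroportin, while iron bound to transferrin enters through the transferrin receptor. BACH1 represses Hmox1 until it binds heme, and the iron regulatory proteins bind hairpins called iron-responsive elements in the messages for ferritin, ferroportin and the transferrin receptor. Macrophages recycle iron from dying red cells with the same enzymes, and the lactating mammary gland secretes transferrin into milk.

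Those hairpins are the regulatory sequence that members of this group share, so they are shown here. A search of the untranslated regions of 21901 coding genes in GENCODE M21 (build GRCm38) looked on the transcript strand for a C, any 5 bases, the loop letters CAGTGN and 5 bases that pair with the 5 before the loop, by Watson-Crick or G-T pairs. The pattern stood in the 5′ region of 0.142% and in the 3′ region of 0.589% of those genes, and in 4 of the 10 members. Each is printed 5′ to 3′ with 6 bases on either side, where capitals mark the loop letters CAGTGN:
Fth1, 5′ region, chr19:9982732-9982760, plus strand: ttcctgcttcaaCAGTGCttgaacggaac
Ftl1, 5′ region, chr7:45459779-45459807, minus strand: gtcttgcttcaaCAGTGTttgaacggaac
Slc40a1, 5′ region, chr1:45925465-45925493, minus strand: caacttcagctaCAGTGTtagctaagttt
Tfrc, 3′ region, chr16:32631219-32631247, plus strand: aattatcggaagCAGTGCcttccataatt
Tfrc, 3′ region, chr16:32631598-32631626, plus strand: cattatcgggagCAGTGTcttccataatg
Tfrc, 3′ region, chr16:32631663-32631691, plus strand: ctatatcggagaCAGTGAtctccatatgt
Tfrc, 3′ region, chr16:32631710-32631738, plus strand: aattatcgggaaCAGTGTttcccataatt
The sites of Fth1 and Ftl1 had the same base at 26 of 29 positions. Tfrc held 4 of the 7 sites. As background, binding at a site before the coding region blocks translation, while binding at sites after it stabilises the message, so read counts can follow the second kind of control and not the first. No binding was measured here.

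Libraries held between 18929743 and 33131739 reads in genes. Levels are given as CPM, the reads of a gene per 1000000 reads of the tested genes after TMM scaling, with replicate 1 before replicate 2 in each group. Differences are given as log2 AXL KO minus WT with the standard error of edgeR's fit over all genes. Axl checked the labels: it was at 61.8 and 35.2 CPM in the WT tumours and 4.75 and 4.89 CPM in the AXL KO tumours, a log2 difference of −3.33 ± 0.33 (SE). Among the tissue markers, the epithelial gene Epcam was at 966 to 1342 CPM, while the basal keratin genes Krt5 and Krt14 did not exceed 1.36 CPM. The summed mammary epithelial markers were at 14028 and 16228 CPM in the WT tumours and 22793 and 22862 CPM in the AXL KO tumours. Most of that sum was Erbb2, at 10967 and 12594 CPM and at 19776 and 19975 CPM. Neu, the oncogene driven in both groups, is Erbb2, so its reads may come from the transgene and the sum cannot stand for epithelial content. The part of these markers in the members' levels was not tested. Without regard to size, 6 of the 8 markers had a log2 difference below 0, where 50.3% of all genes tested did. Among the 6 were Krt8 and Krt18, and also Krt5 and Krt14 with their low levels. The median of the 8 was −0.50, but −0.07 without WT replicate 2. WT replicate 2 stood apart. It was the highest of the 4 libraries for all 10 hypoxia markers and all 10 mitosis markers, with summed levels of 2451 CPM against 795 to 1060.4 CPM and of 1194 CPM against 423 to 642 CPM. Members are therefore also given without that library. The description label of AXL KO replicate 2 starts with another prefix than those of the other 3 libraries, and its meaning is not given, so values without that library are the values within the shared prefix.

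Of the 10 members, Hmox1 and Bach1 were lower in both AXL KO libraries than in both WT libraries, and Trf was higher in both. Such a separation of the groups, in either direction, was found for 29.2% of all genes tested, 14.5% lower and 14.7% higher. The other 7 members overlapped between the groups. The log2 difference was below 0 for 9 of the 10 members, with a median of −0.19, where 50.3% of all genes tested lay below 0 and their median was −0.0020. Nothing is read from these counts, because the members were picked on this contrast.

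**Figure D1:**
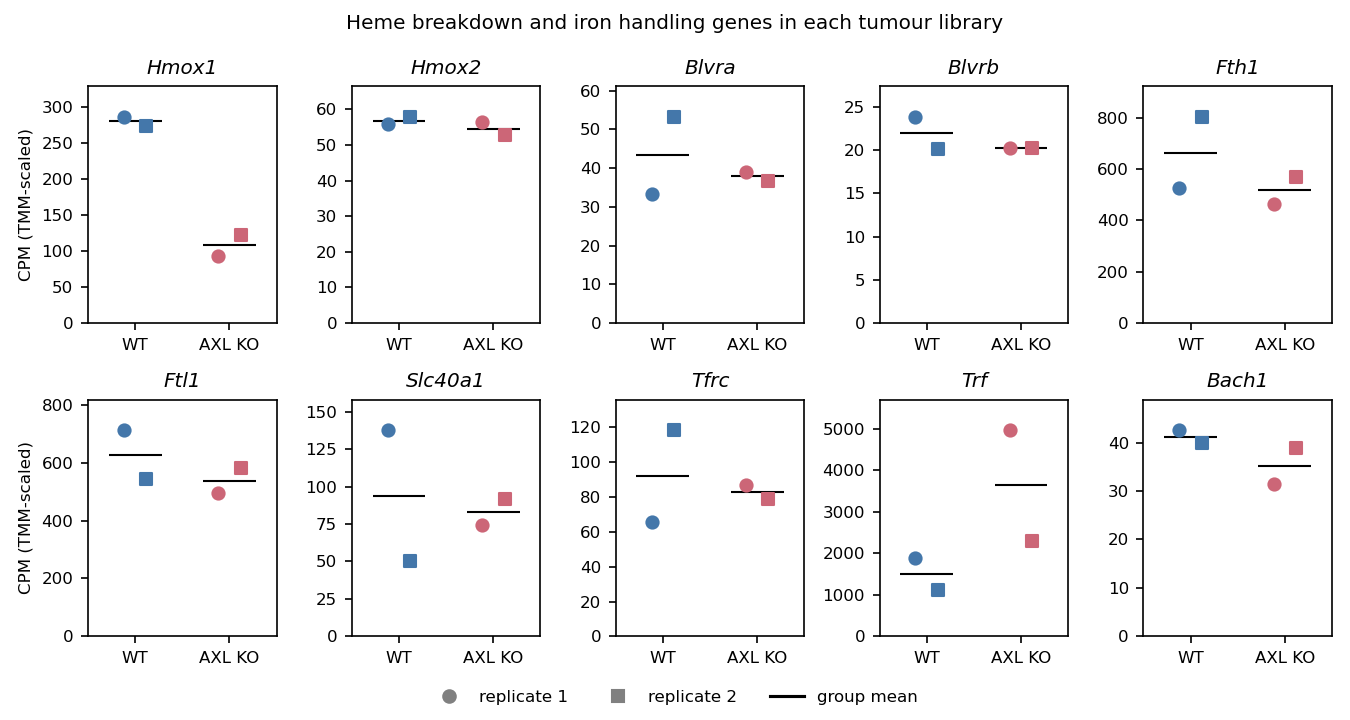
Level of each of the 10 genes (CPM, TMM-scaled, linear axes from 0) in the 4 tumour libraries, by group. Circles are replicate 1, squares replicate 2, and bars the mean of 2 libraries. Hmox1 sits at 286 and 274 CPM in the WT tumours and 93.1 and 123 CPM in the AXL KO tumours. Blvra, Blvrb, Fth1, Ftl1, Slc40a1 and Tfrc differ more between the WT libraries than between the group means.

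Hmox1 (ENSMUSG00000005413, chromosome 8 from 75093621 to 75100589 on the plus strand of GRCm38) encodes heme oxygenase 1, the inducible enzyme of heme breakdown. WT replicates 1 and 2 held 6116 and 5226 Hmox1 reads, or 286 and 274 CPM. AXL KO replicates 1 and 2 held 1744 and 4090 reads, or 93.1 and 123 CPM. The WT libraries lay close together and both AXL KO libraries lay far below them, so the AXL KO mean was 38.6% of the WT mean. The log2 difference was −1.37 ± 0.21 (SE), a level 2.59-fold lower. Of the genes tested, 2.72% had a larger difference in either direction. With 1 library left out at a time it ran from −1.60 to −1.19, with −1.41 without WT replicate 2 and −1.60 within the shared prefix. In bulk tumours fewer cells of a type and less RNA per cell cannot be told apart.

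Hmox2 (ENSMUSG00000004070, chromosome 16 from 4726361 to 4766742 on the plus strand), the gene of the constitutive heme oxygenase, was nearly level across the same tumours. It was at 55.8 and 57.9 CPM in the WT tumours and 56.3 and 52.8 CPM in the AXL KO tumours. Its log2 difference of −0.06 ± 0.17 (SE) was the smallest among the members, and it stayed between −0.11 and −0.03 with any 1 library left out. Per kilobase of transcript, Hmox1 exceeded Hmox2 by 5.65-fold and 5.21-fold in the WT libraries and by 1.82-fold and 2.56-fold in the AXL KO libraries. The ratio of the 2 isoenzymes restates the separation of the groups in Hmox1, since Hmox2 itself ranged only from 52.8 to 57.9 CPM. Hmox2 shares 892 exon bases with Cdip1 on the opposite strand, so, unless the counting used strand, which the sources used here do not say, reads in the shared part cannot be assigned to either gene.

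Bach1 (ENSMUSG00000025612, chromosome 16 from 87698945 to 87733346 on the plus strand), the repressor of Hmox1, was at 42.5 and 39.8 CPM in the WT tumours and 31.4 and 38.9 CPM in the AXL KO tumours. The groups did not overlap, but AXL KO replicate 2 came within 1 CPM of WT replicate 2. The log2 difference was −0.23 ± 0.21 (SE), and it was −0.09 without AXL KO replicate 1 and −0.41 without AXL KO replicate 2. The repressor and its target were both at their lowest in AXL KO replicate 1. That library was also the lowest for 5 of the 6 fibroblast markers, which summed to 270.0 CPM there and 675 to 981 CPM elsewhere, and for all 10 mitosis markers. The part of either in the levels of Hmox1 and Bach1 was not tested.

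Blvra and Blvrb encode the biliverdin reductases that act after heme oxygenase, A on the main adult form of biliverdin and B mainly on the fetal form and on flavins. Blvra (ENSMUSG00000001999, chromosome 2 from 127070665 to 127097084 on the plus strand) was at 33.4 and 53.2 CPM in the WT tumours and 39.1 and 36.6 CPM in the AXL KO tumours. Its WT libraries enclosed both AXL KO libraries, and the log2 difference of −0.19 ± 0.28 (SE) turned to 0.18 without WT replicate 2. Blvrb (ENSMUSG00000040466, chromosome 7 from 27447978 to 27466144 on the plus strand) was at 23.8 and 20.1 CPM in the WT tumours and 20.2 and 20.3 CPM in the AXL KO tumours. Its log2 difference was −0.12 ± 0.23 (SE) and came to 0.01 without WT replicate 1. Neither reductase showed a gap like that of Hmox1.

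Ferritin genes were among the most abundant messages, with a mean CPM above that of 98.98% of the genes tested for Fth1 and of 98.96% for Ftl1. Fth1 (ENSMUSG00000024661, chromosome 19 from 9980598 to 9985098 on the plus strand), the heavy chain with ferroxidase activity, was at 525 and 803 CPM in the WT tumours and 465 and 568 CPM in the AXL KO tumours. Ftl1 (ENSMUSG00000050708, chromosome 7 from 45457944 to 45459884 on the minus strand), the light chain that helps to form the iron core, was at 711 and 542 CPM in the WT tumours and 494 and 580.1 CPM in the AXL KO tumours. The groups overlapped for both subunits, and AXL KO replicate 1 was the lowest library for both. Log2 differences were −0.36 ± 0.30 (SE) for Fth1 and −0.22 ± 0.26 (SE) for Ftl1. They rest on different WT libraries: Fth1 came to −0.02 without WT replicate 2, and Ftl1 to −0.01 without WT replicate 1.

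The balance of the ferritin chains differed most within WT. The ratio of Fth1 to Ftl1 per kilobase was 0.478 and 0.96 in the WT tumours and 0.61 and 0.634 in the AXL KO tumours, so both AXL KO libraries lay between the WT libraries. Ferritin genes have many processed copies in the mouse genome, and the count files set alignments to more than 1 place on a line of their own. That line held 23.2% to 28.1% of all entries counted in a file, genes and summary lines together. The 13 other genes whose symbols start with Fth or Ftl summed to 8.55 to 16.2 CPM, nearly all of it from Ftl1-ps1. Ferritin levels are uncertain for this reason. Ftl1 also shares 109 exon bases with the miRNA gene Gm22133 on its own strand, which had 0 reads, and 355 with Gm10252 on the other strand, which has no row in the count files.

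Slc40a1 (ENSMUSG00000025993, chromosome 1 from 45908068 to 45926523 on the minus strand) encodes ferroportin, the known iron exporter of mammalian cells. It was at 137 and 50.6 CPM in the WT tumours and 74.2 and 92 CPM in the AXL KO tumours. The WT libraries were the highest and the lowest of the 4 and differed by 2.72-fold, against 1.24-fold between the AXL KO libraries. The log2 difference of −0.18 ± 0.48 (SE) went to 0.72 without WT replicate 1 and to −0.73 without WT replicate 2, so no direction can be given. Cp, whose product ceruloplasmin oxidises exported iron, took the same order of libraries, at 291 and 68.1 CPM in the WT tumours and 148 and 281 CPM in the AXL KO tumours.

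Macrophage genes did not share 1 order. Lyz2, the most abundant, was at 353 and 288 CPM in the WT tumours and 358 and 455 CPM in the AXL KO tumours. Csf1r and Cd68 were at 103 and 34.8 CPM in WT replicate 1, 46 and 22 in WT replicate 2, 66.1 and 26.8 in AXL KO replicate 1 and 98 and 34.4 in AXL KO replicate 2. Those 2 genes took the order of Slc40a1. WT replicate 2 was the lowest library for 7 of the 14 macrophage markers and the highest for 4, and AXL KO replicate 1 was the lowest for 6. The summed level of the 14 was 483 to 620.5 CPM in WT and 548 to 733 CPM in AXL KO. Marco, a receptor of some resident macrophages, was at 0.366 CPM or less, and Spic, a factor of red pulp macrophages, at 2.24 to 4.21 CPM. The part of macrophages in the levels of Slc40a1 and Hmox1 was not tested.

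Tfrc (ENSMUSG00000022797, chromosome 16 from 32608920 to 32632794 on the plus strand) encodes transferrin receptor 1, which dividing cells use to take up iron. It was at 65.3 and 118 CPM in the WT tumours and 86.5 and 78.8 CPM in the AXL KO tumours. WT again held the highest and the lowest library, and the log2 difference of −0.15 ± 0.31 (SE) turned to 0.34 without WT replicate 2 and was −0.51 without WT replicate 1. The library highest for Tfrc was also the highest for the hypoxia and mitosis markers, among them Mki67 at 395 CPM there and 138 to 243 CPM elsewhere. The part of either state in the Tfrc level was not tested.

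The receptor Tfrc and the exporter Slc40a1 ran in opposite directions in the WT tumours, while the carrier Trf, like Slc40a1, was lowest in WT replicate 2. WT replicate 2 was at once the highest library for Tfrc and the lowest for Slc40a1, and WT replicate 1 the reverse. Per kilobase, the ratio of Tfrc to Slc40a1 was 0.328 and 1.61 in the WT tumours and 0.803 and 0.59 in the AXL KO tumours. Fth1, Blvra and, by a small margin, Hmox2 also had their highest level in WT replicate 2.

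Trf (ENSMUSG00000032554, chromosome 9 from 103204001 to 103230444 on the minus strand), which encodes transferrin, the iron carrier of plasma and of mouse milk, was the one member higher in both AXL KO libraries. It was at 1896 and 1123 CPM in the WT tumours and 4957 and 2306 CPM in the AXL KO tumours. The groups did not overlap, but AXL KO replicate 1 had 2.15 times the level of AXL KO replicate 2, which was nearer to WT replicate 1. The log2 difference was 1.27 ± 0.57 (SE), 2.41-fold higher, and 3.48% of the genes tested had a larger one in either direction. It was 0.60 without AXL KO replicate 1, was 0.94 without WT replicate 2 and reached 1.70 within the shared prefix.

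Milk genes were in part highest where Trf was. AXL KO replicate 1, the highest library for Trf, was the highest for 7 of the 10 milk and secretory markers, with the casein gene Csn2 at 121 CPM there, 86.7 CPM in AXL KO replicate 2 and 0.561 and 40.7 CPM in WT replicates 1 and 2. Among the 7 were Wap and Glycam1, at only 0.80 and 1.66 CPM there. Xdh, a milk fat globule enzyme gene, was at 269 and 219 CPM in the WT tumours and 389 and 353 CPM in the AXL KO tumours. Lalba, a more abundant milk gene, overlapped between the groups, at 663 and 358 CPM in the WT tumours and 1036 and 61.4 CPM in the AXL KO tumours. The summed level went the other way, 29241 and 19249 CPM in the WT tumours and 15634 and 25387 CPM in the AXL KO tumours (replicate 1 first in each group), and its largest part was Csn3, at 28294 and 18516 CPM in the WT tumours and 13696 and 24731 CPM in the AXL KO tumours. The part of secretory cells in the Trf level was not tested. Gm20425 shares 2108 exon bases with Trf on the same strand and drew 3 reads at most, so reads in the shared part may have been set aside as ambiguous, a class that took 0.635% to 1.85% of all entries counted and was largest in AXL KO replicate 1.

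**Figure D2:**
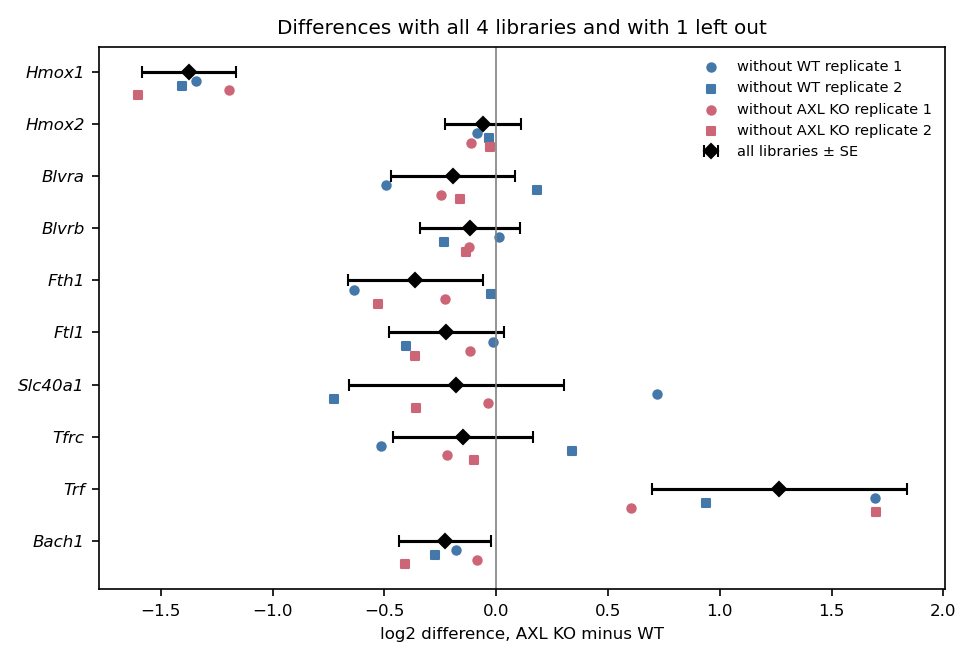
Log2 difference of each gene, AXL KO minus WT. Diamonds with bars are the difference from all 4 libraries ± SE, and coloured points the same fit with 1 library left out. Hmox1 stays between −1.60 and −1.19 and Trf between 0.60 and 1.70, while Blvra, Blvrb, Slc40a1 and Tfrc cross 0 when 1 WT library is removed.

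The members not yet given without WT replicate 2 then had log2 differences of −0.24 for Blvrb, −0.41 for Ftl1 and −0.27 for Bach1, and Hmox2 had −0.03. The plot of log2 differences sets these refits beside the values from all 4 libraries.

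To compare genes with one another, CPM was divided by the length in kilobases of the longest principal transcript. Trf led at a mean of 999.8 CPM per kilobase over the 4 libraries, followed by Ftl1 at 601, Fth1 at 395 and Hmox1 at 124. Next came Blvra at 35, Hmox2 at 32.2, Slc40a1 at 26.3, Blvrb at 20.5 and Tfrc at 17.8, with Bach1 last at 6.5. The ranges over libraries did not overlap between Fth1 and Hmox1, between Hmox1 and Blvra or between Tfrc and Bach1. All other neighbours in this order overlapped, although Ftl1 was above Fth1 within every library. Trf led in AXL KO, at a mean of 1412 against 555 CPM per kilobase for Ftl1, but not in WT, at 587 against 647. In WT replicate 1 alone Trf was at 738 and Ftl1 at 735. Reads in the 2108 exon bases that Trf shares with Gm20425 may have been set aside as ambiguous. The level of Trf per kilobase may therefore be too low, and its order against Ftl1 in WT is uncertain. With the shortest of their principal transcripts, Fth1 would pass Ftl1, at 635 CPM per kilobase, and Hmox2 would pass Blvra, at 43.3.

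Other genes were set beside Hmox1 by the root mean square difference of centred log2 CPM over the 4 libraries, among 9504 genes with a mean of at least 10 CPM and a standard symbol. The nearest was the homeodomain factor gene Lmx1b, with a difference of 0.0912, at 84.6 and 68 CPM in the WT tumours and 24.7 and 33.9 CPM in the AXL KO tumours. Shisa8 followed at 0.092, Plekhg2 at 0.237, the ephrin receptor gene Ephb6 at 0.259 and the carbonic anhydrase gene Car6 at 0.259. Among the other 9 members Bach1 was nearest, ranked 911th at 0.576, followed by Fth1, ranked 935th at 0.578, and Trf was farthest, ranked 9331st. Hmox2, nearly level across the libraries, was at 0.687, so Bach1 and Fth1 were only a little nearer to Hmox1 than a level gene. With 4 libraries such a likeness is a description.

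**Figure D3:**
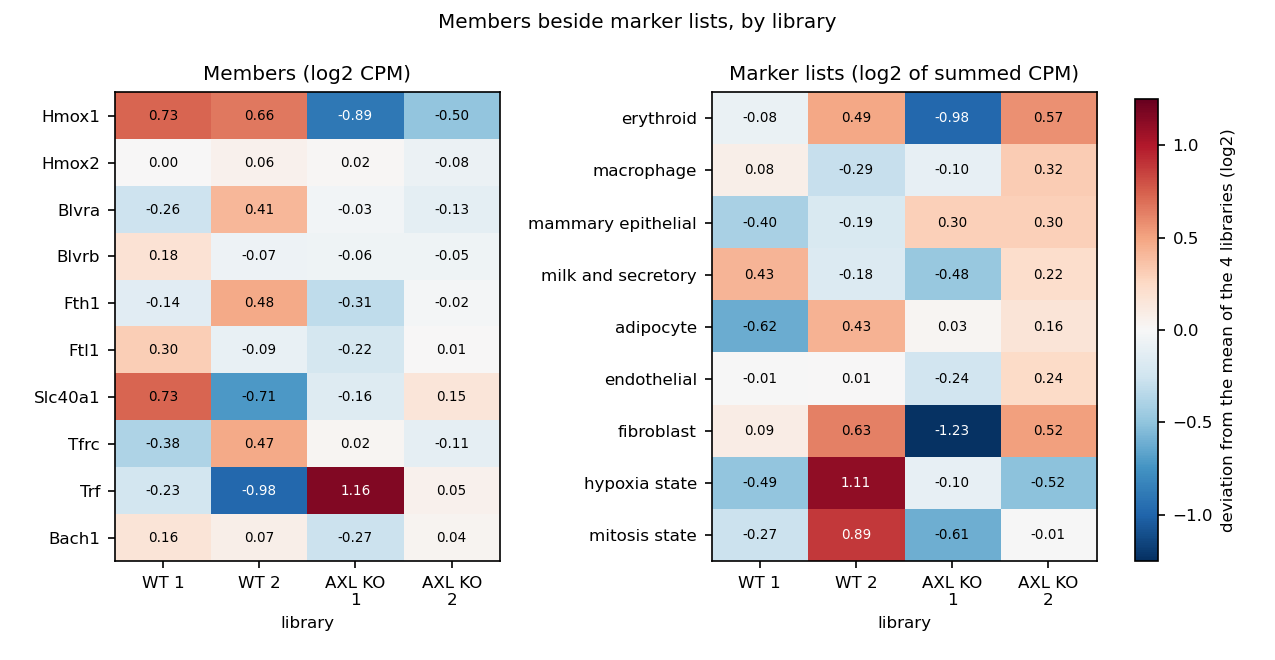
Left, log2 CPM of each member minus its mean over the 4 libraries. Right, the same for the log2 of the summed CPM of each marker list. Hmox1 is 0.73 and 0.66 above its mean in WT and 0.89 and 0.50 below in AXL KO, and WT replicate 2 is 1.11 above the mean for hypoxia markers.

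Red cells in the tumour carry heme, so their genes were set beside Hmox1. Erythroid markers, led by the globin genes Hbb-bs and Hba-a1, summed to 83.3 and 123 CPM in the WT tumours and 44.7 and 131 CPM in the AXL KO tumours. AXL KO replicate 1 had the lowest sum and the least Hmox1. WT replicate 2 and AXL KO replicate 2 were close in Hbb-bs, at 77.6 and 78.9 CPM, and in Hba-a1, at 27.6 and 25.7 CPM. They were not close in Alas2, at 7.85 and 16.3 CPM. Hmox1 was at 274 and 123 CPM in them. Hypoxia markers separated WT replicate 2 from WT replicate 1 by 2451 against 807 CPM, while Hmox1 was at 274 and 286 CPM in those libraries. The part of red cells and of hypoxia in the Hmox1 level was not tested.

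Beyond the 10 members, 77 further heme and iron genes were listed by role, and 68 of them passed the low-count filter. By edgeR's quasi-likelihood test with Benjamini-Hochberg adjustment over all 14330 genes, 0 of the 68 passed an adjusted p of 0.05, where 0% of all genes tested did. At an unadjusted p under 0.05 there were 3 of the 68, 2 higher and 1 lower in AXL KO, against 2.19% of all genes tested. Limma-voom called 0 of them and DESeq2 called 1, Ltf, where DESeq2 called 0.0826% of 20587 genes with a count. Among the 68, the groups did not overlap for 12 with AXL KO above WT and for 16 with AXL KO below, where the shares of all genes tested were 14.7% and 14.5%.

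The partners, rivals and shared targets of BACH1 lay mostly below WT. Of the 11 genes, 10 had a log2 difference below 0, where 50.3% of all genes tested did. Their median was −0.32 beside −0.0020 for all genes tested, and it was −0.27 without WT replicate 2. Both AXL KO libraries were below both WT libraries for 6 of the 11 and above for 0. Over all genes tested these shares were 14.5% and 14.7%. Of the 11, 0 passed edgeR's test. The list was drawn up with earlier results of these data known, so nothing is read from these counts. Gclc and Gclm, the subunits of the enzyme that starts glutathione synthesis, were at 52.1 and 42.2 CPM and at 106 and 94.3 CPM in WT replicates 1 and 2. In AXL KO replicates 1 and 2 they were at 34.3 and 35.7 CPM and at 79.2 and 80.7 CPM. Their log2 differences were −0.43 ± 0.20 and −0.33 ± 0.17 (SE), so each was small beside that of Hmox1. The small Maf gene Maff was at 5.05 and 26.2 CPM in the WT tumours and 2.46 and 4.68 CPM in the AXL KO tumours, and its log2 difference of −2.11 came to −0.48 without WT replicate 2.

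Iron uptake and reduction genes held the 3 smallest p-values of the 68. Ltf, which encodes the iron-binding milk and neutrophil protein lactoferrin, stood at 8.65 and 11.7 CPM in the WT tumours and 23.6 and 42.1 CPM in the AXL KO tumours. Steap2, whose product reduces metals at membranes, was at 2.34 and 1.2 CPM in the WT tumours and 5.23 and 4.62 CPM in the AXL KO tumours. Slc11a2 encodes the ferrous iron carrier DMT1, which moves transferrin-borne iron out of endosomes, and was at 41.9 and 37.5 CPM in the WT tumours and 25.3 and 27.9 CPM in the AXL KO tumours. Their log2 differences were 1.69 ± 0.36, 1.47 ± 0.46 and −0.58 ± 0.20 (SE). The groups did not overlap for any of these 3 genes, a separation found for 29.2% of all genes tested. Because the 3 were named for their small p-values in this contrast, nothing is read from that separation. None passed edgeR's quasi-likelihood test, with an adjusted p of 0.9997 each. The list of 10 tested genes had a median of −0.18, which turned to 0.14 without WT replicate 2.

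Mitochondrial iron and iron-sulfur genes split nearly evenly, with 7 of 13 above 0 and 6 below, a list median of 0.11 and 0 calls by edgeR. Of the 13, 6 were higher in both AXL KO libraries than in both WT libraries and 0 were lower, where the shares of all genes tested were 14.7% and 14.5%. Iscu, the scaffold on which iron-sulfur clusters are built, was at 51.2 and 41.6 CPM in the WT tumours and 66.3 and 57.1 CPM in the AXL KO tumours, a log2 difference of 0.41 ± 0.20 (SE). Fdx1, a ferredoxin gene, and the assembly factor gene Isca2 had log2 differences of 0.36 and 0.37. Without WT replicate 2 the list median was 0.05.

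Heme synthesis genes had a median of 0.03 over 13 genes, 8 above 0 and 5 below, and 0 passed edgeR's test. Both AXL KO libraries were below both WT libraries for 4 of the 13 and above for 1, where the shares of all genes tested were 14.5% and 14.7%. Fech, which inserts iron into the ring, was at 46.2 and 58.4 CPM in the WT tumours and 43.7 and 42.7 CPM in the AXL KO tumours. The transporter gene Abcb6 and the synthase gene Uros had log2 differences of −0.28 ± 0.19 and 0.36 ± 0.31 (SE).

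Heme transport genes had a median of 0.02 over 10 genes, 5 above 0 and 5 below, again with 0 calls by edgeR. Slc48a1, which moves heme out of lysosomes, was at 80.3 and 67.4 CPM in the WT tumours and 61.5 and 63.4 CPM in the AXL KO tumours. Flvcr2 and Slc46a1, transporter genes once described as heme carriers, had log2 differences of 0.56 ± 0.32 and 0.49 ± 0.34 (SE), which were 0.20 and 0.13 without WT replicate 2.

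Storage and sensing lists had medians near 0. The 5 tested genes of iron storage, release, oxidation and chaperones had a median of 0.03 and the 6 of iron sensing and the hepcidin axis one of 0.03, both with 0 calls by edgeR. Ncoa4, which carries ferritin to the lysosome, and Pcbp2, which hands iron to ferritin and also binds RNA, had log2 differences of 0.19 ± 0.22 and −0.52 ± 0.25 (SE). Aco1, the gene of iron regulatory protein 1 and cytosolic aconitase, was at 171 and 169.9 CPM in the WT tumours and 141 and 151 CPM in the AXL KO tumours, a log2 difference of −0.22 ± 0.17 (SE). Hfe, a partner of transferrin receptor 1, had a log2 difference of 0.80 ± 0.42 (SE), which was 0.34 without WT replicate 2. Hamp, the gene of the iron hormone hepcidin, and Ftmt, mitochondrial ferritin, had 0 reads in all 4 libraries.

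**Figure D4:**
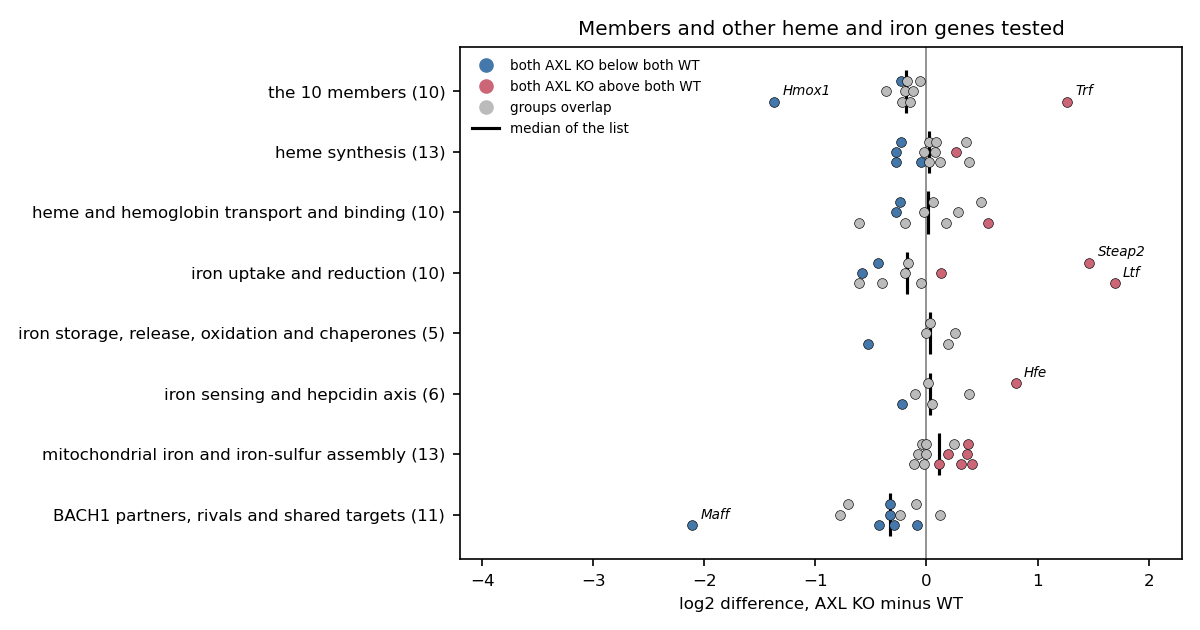
Log2 difference, AXL KO minus WT, of the 10 members and of the tested genes of 7 further heme and iron lists, with the number of genes after each name. Each point is a gene, coloured by whether the libraries of the groups overlap, and black bars are list medians. The BACH1 list has its median at −0.32 and the other lists between −0.18 and 0.11.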

How the data were processed

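The authors deposited 1 whole-number read count per Ensembl gene and library. Per the submitters' processing notes, the tools included DESeq2 1.4.5, HTSeq 0.5.3, TopHat2 2.0.10 and CASAVA 1.8, and the build was GRCm38. Not given in the sources used here were their roles, the annotation release and the strand setting. The 5 summary lines of each file, of which alignments to more than 1 place held 23.2% to 28.1% and reads in no feature 5.27% to 8.11% of all entries, were left out of library sizes.

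Symbols, positions and transcripts came from GENCODE M21, which matched 36345 of 38293 identifiers; Fdx2 and Hjv were found under the older symbols Fdx1l and Hfe2, and Ahsp had no match. Genes kept by filterByExpr were scaled with TMM and fitted as AXL KO against WT with edgeR 4.0.16 (glmQLFit, legacy=FALSE), limma 3.58.1 and DESeq2 1.42.0 serving as alternatives, in R 4.3.3. The fit was tested on simulated counts. There it called 4.55% of 2-fold, 63.9% of 4-fold and 92.4% of 16-fold changes, so a gene that was not called may still have changed. On the real counts it called 0 of 14330 genes, so even Axl, with a log2 difference of −3.33, was not called. The simulated shares may thus be too high for the real counts. Chi-square values between libraries were 32.2 per degree of freedom or more, so no library repeated another. The lowest value was for WT replicate 1 and AXL KO replicate 2, a pair across the groups. Within the groups it was 142 for WT and 58.3 for AXL KO. Standard errors rest on 2 libraries a group.

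The members and lists were chosen with earlier results of these data known. Named were the members, the up to 3 genes with the smallest p in each list, the 5 genes nearest to Hmox1, and the highest or absent markers. Hamp, Ftmt, Krt8, Spic, Marco, Csn2, Wap, Glycam1, Krt5 and Krt14 were chosen after their values were seen.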

Additional observations from a re-analysis of the deposited data

How the results depend on the processing

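Having 2 libraries a group limits every value here. Under the 8 alternatives that kept all libraries (DESeq2 size factors, library totals, other low-count filters, DESeq2, limma-voom, older edgeR settings and the replicate block), none of the 10 members' log2 differences changed sign and the largest shift was 0.164. By library totals, 4 members in place of 3 did not overlap, Hmox2 being the addition. Leaving out 1 library at a time changed the sign for 4 members, Blvra, Blvrb, Slc40a1 and Tfrc, and a lone library was then assumed to vary like the other group. Over all genes edgeR called 0, DESeq2 17 and edgeR without 1 library 0 to 216, the 216 being without WT replicate 1. Of the other heme and iron genes DESeq2 called 1, and edgeR 0 with any 1 library left out. The replicate numbers are not said to pair the libraries, and the deviations of same-numbered libraries had a correlation of −0.045 across genes. With the number as a replicate block, edgeR called 0 genes and Hmox1 was at −1.39. The cause of the calls without WT replicate 1 was not tested.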
